A study of Mus musculus with 2 samples.

Results

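The HoxA cluster is a row of homeobox genes on mouse chromosome 6. Of its genes, 9 were described here: Hoxa2, Hoxa3, Hoxa4, Hoxa5, Hoxa7, Hoxa9, Hoxa10, Hoxa11 and Hoxa13. They were taken through every probe set whose only gene symbol in the array's annotation is 1 of these names, which gave 16 probe sets of the 45037 that are not controls, and 9 genes of 18193. The rule itself uses no measured value, though the genes were picked with earlier results of these data known.

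RNA came from embryonic fibroblasts of the mouse, which grow out when an embryo is taken apart and plated, and was hybridised to 1 Affymetrix array per genotype. The cultures were Phc2 L307R/L307R, homozygous for a missense change in Phc2, and wild type. Both were of the strain C57BL/6, from embryonic day 12.5 and at passage 1, and no treatment is named. The number of embryos behind each culture is not stated. With 1 array for each genotype there is no replicate error: each difference below is one between 2 cultures, no test was possible between them, and no p-value was computed.

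Hox proteins are transcription factors that give cells their place along the body axis and along the limb. Genes at the 3' end of a cluster, with low numbers, are active toward the head, and genes at the 5' end, with high numbers, toward the tail and the tip of the limb. Polycomb repressive complexes keep Hox genes silent outside their domain. PRC2 methylates lysine 27 of histone H3, while PRC1 ubiquitylates histone H2A and compacts the chromatin. Phc2 is a subunit of canonical PRC1, and its SAM domain lets Phc2 molecules polymerise. L307R lies in that domain, and the comparison asks how expression differs when this polymerisation is disturbed.

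Values are MAS5 signals, a linear brightness per probe set, and ratios are log2 of Phc2 L307R over wild type. A signal below 94.8, the higher of the medians of both arrays, was taken as not above the floor. It was raised to the floor before the ratio was taken, so a fold that rests on it is a bound and is given with the words "at least". The probe set of highest mean signal stood for its gene, which counted as measured if either array's signal exceeded the floor. The error at hand is technical: between probe sets of 1 gene the log2 ratio had an SD of 0.32, pooled over the 5460 genes that had 2 or more measured. Phc2 itself had signals of 4079 in Phc2 L307R and 3184 in wild type at probe set 1416048_at, and 3103 in Phc2 L307R and 3145 in wild type at 1437239_x_at. A missense change leaves the probed transcript in place, so these values do not check the labels. Fibroblast markers with a probe set were all measured, 11 of 11, with a summed signal of 176240 in Phc2 L307R and 134240 in wild type. Of these, 8 had a log2 ratio above 0, beside 59.1% of all measured genes, and the median was 0.42. Pdgfra, Pdgfrb and S100a4 were the 3 below 0. In cultures of mixed cells, fewer cells of a type and less RNA per cell cannot be told apart.

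At the probe set that stands for each gene, Hoxa2 to Hoxa5, nearest the 3' end, had lower signals in Phc2 L307R, and Hoxa10 to Hoxa13, at the 5' end, had signals close to or above those of wild type. Hoxa7, in the middle, was at least 2-fold higher, a call that was lost with centred ratios (0.98), with a pseudocount (0.70) and with a higher floor (0.14 on the log2 scale). Hoxa3 and Hoxa9 were each lower at 1 probe set and higher at another. None of these differences has a replicate, and none was tested.

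The promoter windows of the 3 genes at the extremes of this pattern are shown, Hoxa7 with the highest ratio given, Hoxa2 with the lowest, and Hoxa5, whose 2 probe sets gave log2 ratios within 0.02 of each other. Each runs from 250 bases before to 50 after the start of the gene, read 5′ to 3′ on the minus strand of GRCm38.p6 from RefSeq, with each CpG, the dinucleotide CG, in capitals. The Hoxa7 window is chr6:52218524-52218823, that of Hoxa5 is chr6:52204538-52204837 and that of Hoxa2 is chr6:52164782-52165081.
Hoxa7: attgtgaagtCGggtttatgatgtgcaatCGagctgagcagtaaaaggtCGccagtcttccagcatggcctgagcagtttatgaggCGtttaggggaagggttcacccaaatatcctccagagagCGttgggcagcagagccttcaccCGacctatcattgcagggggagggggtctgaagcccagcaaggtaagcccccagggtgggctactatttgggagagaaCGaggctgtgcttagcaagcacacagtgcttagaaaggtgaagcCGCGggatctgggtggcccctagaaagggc
Hoxa5: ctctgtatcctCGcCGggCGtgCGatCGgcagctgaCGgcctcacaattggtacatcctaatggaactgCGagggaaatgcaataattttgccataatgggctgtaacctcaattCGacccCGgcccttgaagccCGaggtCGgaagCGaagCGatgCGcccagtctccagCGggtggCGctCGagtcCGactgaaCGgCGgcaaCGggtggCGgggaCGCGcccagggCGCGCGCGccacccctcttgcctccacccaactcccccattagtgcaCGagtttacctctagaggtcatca
Hoxa2: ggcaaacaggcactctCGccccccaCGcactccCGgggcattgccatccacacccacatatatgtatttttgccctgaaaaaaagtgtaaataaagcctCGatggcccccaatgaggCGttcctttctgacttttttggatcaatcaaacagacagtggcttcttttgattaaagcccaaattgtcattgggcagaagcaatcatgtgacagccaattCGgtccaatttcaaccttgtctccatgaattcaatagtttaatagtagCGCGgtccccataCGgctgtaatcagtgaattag

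CpG-rich promoters are where Polycomb complexes gather in mammals. The Hoxa5 window held 29 CpGs, and the Hoxa7 and Hoxa2 windows 9 each. Over all 32851 windows of the RefSeq table the median was 7, and over the 9 windows of 8 HoxA genes it was 15, with a range of 4 to 45. Hoxa9 had the fewest and Hoxa13 the most. The share of all windows with fewer CpGs was 54.2% for Hoxa7 and Hoxa2 and 87.1% for Hoxa5. A relation between CpG count and the ratios was not tested. Observed over expected CpG was 0.41 for Hoxa7, 1.02 for Hoxa5 and 0.59 for Hoxa2, against a median of 0.38 over all windows. Of 2 motifs searched on both strands, TATAAA was found in 1 of the 9 windows, a window of Hoxa10, and in 13.6% of all windows. TGATNNAT, the form of a joint Pbx and Hox site, was found in 1, that of Hoxa2, and in 8.85% of all. The window listed for Hoxa3 belongs to a long transcript and lies between Hoxa6 and Hoxa7, and the Hoxa3 locus in RefSeq overlaps 8 other genes, among them Hoxa4, Hoxa5 and Hoxa6. Where the probes of Hoxa3 sit in that locus was not analysed here.

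**Figure D1:**
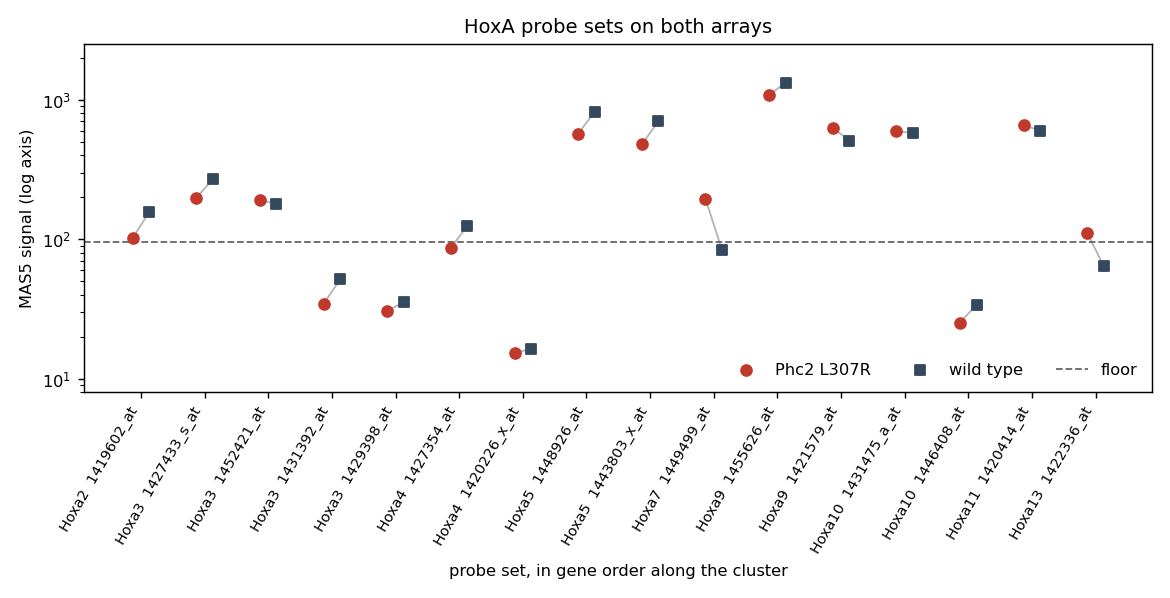
MAS5 signal (log axis) of each of the 16 HoxA probe sets in gene order, Phc2 L307R as red circles and wild type as dark squares, 1 array each. The dashed line is the floor of 94.8, and 4 probe sets lie below it on both arrays.

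Of the 16 probe sets, 9 lay above the floor on both arrays, 3 on 1 array and 4 on neither. Each gene had at least 1 measured probe set. The 3 genes measured on 1 array alone, Hoxa4, Hoxa7 and Hoxa13, had to differ in the direction they did once they passed, so their signs add nothing to a count. Hoxa3, Hoxa5 and Hoxa9 had 2 measured probe sets and the others 1.

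Hoxa2 sets the identity of the second branchial arch and of the hindbrain. Its only probe set, 1419602_at, read 101.8 in Phc2 L307R and 156.6 in wild type, 1.54-fold lower, a log2 ratio of -0.62. This is the lowest ratio given among the members, although that of Hoxa4 is a bound and cannot be ranked against it, and the Phc2 L307R signal lay just above the floor. Of 11408 measured genes, 3.25% were at least 1.5-fold lower and 4.2% at least 1.5-fold higher. Among the 9 members, Hoxa2 was the 1 that was at least 1.5-fold lower and Hoxa7 the 1 that was at least 1.5-fold higher.

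Hoxa3 is needed for the thymus, the parathyroid glands and the throat skeleton. At probe set 1427433_s_at it had 197.6 in Phc2 L307R and 268.9 in wild type, a log2 ratio of -0.44. At 1452421_at, which the annotation gives the same accession, it had 191.9 in Phc2 L307R and 178.5 in wild type, a log2 ratio of 0.10. The 2 probe sets therefore differed in sign, with a gap of 0.55 between their log2 ratios. Over the 3136 genes with exactly 2 measured probe sets the median gap was 0.26, 80.9% of them had a smaller gap than Hoxa3, and 42.0% had ratios of opposite sign. The remaining probe sets of Hoxa3 were under the floor throughout, with 34.5 in Phc2 L307R and 51.5 in wild type at 1431392_at, and 30.7 in Phc2 L307R and 35.4 in wild type at 1429398_at.

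Hoxa4 takes part in patterning the neck vertebrae. Its measured probe set, 1427354_at, had 86.8 in Phc2 L307R, below the floor, and 124.7 in wild type, which makes it at least 1.32-fold lower, a log2 ratio of -0.40 or less. Its other probe set, 1420226_x_at, was dark on both arrays, at 15.3 in Phc2 L307R and 16.4 in wild type.

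Hoxa5, which is required for the trachea and lung and for the skeleton where neck meets chest, was the member whose probe sets were closest to each other. At 1448926_at the signal was 568.8 in Phc2 L307R and 820.9 in wild type, a log2 ratio of -0.53. At 1443803_x_at it was 477.1 in Phc2 L307R and 698.5 in wild type, a log2 ratio of -0.55. Both probe sets were well above the floor and lower in Phc2 L307R, by 1.44-fold and 1.46-fold. The gap between them, 0.02, was smaller than that of all but 4.53% of genes with 2 measured probe sets. Both read the same 2 RNA samples, so their closeness bears on the precision of the arrays and not on the spread between cultures.

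Hoxa7, which acts in the thoracic skeleton, had 194.8 in Phc2 L307R and 83.6 in wild type at its only probe set, 1449499_at. The wild-type signal was below the floor, so Hoxa7 was at least 2.05-fold higher, a log2 ratio of at least 1.04. It was the 1 member past 2-fold, and with ratios centred on the median of all measured genes it was at 0.98. Of all measured genes, 0.579% were at least 2-fold higher and 0.535% at least 2-fold lower. With this centring the 66 higher and 61 lower genes became 47 and 75, so that 38.5% and not 52.0% of them were higher. Large ratios are more frequent among dim probe sets: of 1972 measured genes with a mean signal under 2 times the floor, the class to which Hoxa7, Hoxa2, Hoxa4 and Hoxa13 belong, 1.47% were at least 2-fold higher. In the 4084 genes between 2 and 8 times the floor, where Hoxa3, Hoxa5, Hoxa10 and Hoxa11 lie, the share was 0.539%. In the 5352 brighter genes, with Hoxa9, it was 0.28%. The SD of the log2 ratio was 0.42, 0.34 and 0.29 in these classes, from dim to bright.

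**Figure D2:**
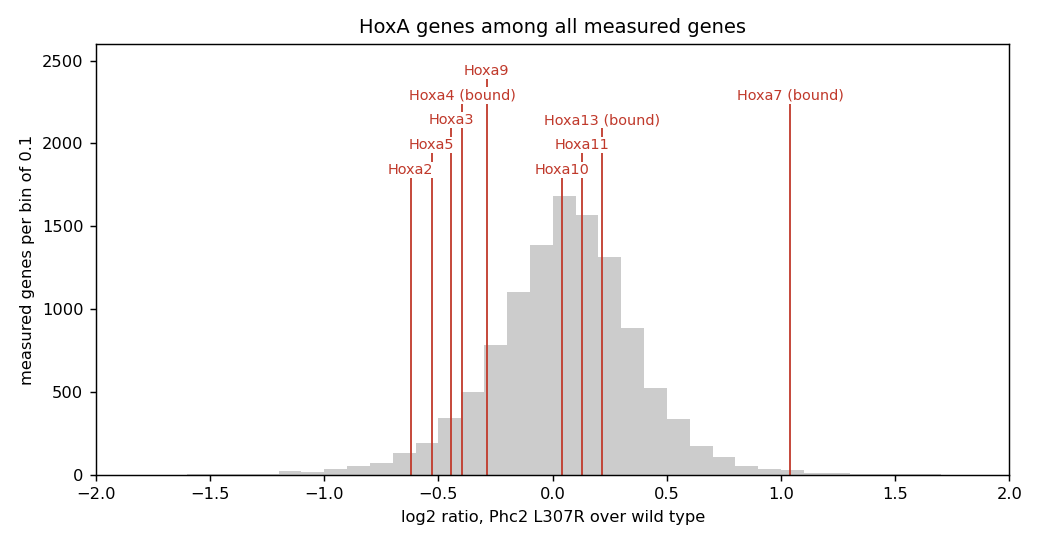
Number of measured genes per bin of 0.1 in the log2 ratio of Phc2 L307R over wild type (grey bars), with each HoxA gene marked by a red line whose height carries no value. The 5 genes beyond 2 in either direction are not drawn. Hoxa7 stands in the upper tail at 1.04 or more, and Hoxa2 to Hoxa5 lie on the lower flank.

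Hoxa9, a factor of blood stem cells and of the trunk and limb, had 1080 in Phc2 L307R and 1320 in wild type at 1455626_at, a log2 ratio of -0.29. At 1421579_at it had 629.0 in Phc2 L307R and 507.5 in wild type, a log2 ratio of 0.31. Both probe sets were far above the floor and differed in sign, and 84.2% of genes with 2 measured probe sets had a smaller gap than their 0.60. Hoxa9 can thus be given no direction from these arrays.

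Hoxa10 patterns the lumbar spine and the uterus. At 1431475_a_at its signals were 591.9 in Phc2 L307R and 575.4 in wild type, a log2 ratio of 0.04, while 1446408_at lay below the floor on both arrays, at 25.3 in Phc2 L307R and 34.0 in wild type. Hoxa11, a factor of the forearm and of the kidney, had 654.7 in Phc2 L307R and 598.2 in wild type at 1420414_at, a log2 ratio of 0.13. Both ratios were smaller than the SD between probe sets of 1 gene. Hoxa13, which forms the digits and the genital tubercle, had 110.1 in Phc2 L307R and 64.0 in wild type at 1422336_at. Since the wild-type signal was below the floor, it was at least 1.16-fold higher, a log2 ratio of at least 0.22.

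Among genes of the cluster that do not code for a homeodomain protein, Hoxa11os, an antisense transcript that starts within Hoxa11, was 1.84-fold higher. Probe set 1452400_a_at had 320.0 in Phc2 L307R and 174.1 in wild type, a log2 ratio of 0.88, while that of Hoxa11 was 0.13. The 2 genes overlap, and how the probes were placed was not analysed here. Its other probe set lay below the floor on both arrays, at 9.8 in Phc2 L307R and 4.5 in wild type. Evx1, the homeobox gene just beyond Hoxa13, lay below the floor on both arrays too, at 10.8 in Phc2 L307R and 66.7 in wild type, as did its antisense partner Evx1os at 47.0 in Phc2 L307R and 42.8 in wild type.

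In order from Hoxa2 to Hoxa13, the main log2 ratios were -0.62, -0.44, -0.40, -0.53, 1.04, -0.29, 0.04, 0.13 and 0.22, where the value of Hoxa4 is an upper bound and those of Hoxa7 and Hoxa13 are lower bounds. The 4 genes of the 3' end had a median of -0.49 and the 5 from Hoxa7 on a median of 0.13. The floor fixed the signs of Hoxa4, Hoxa7 and Hoxa13. Over the members above the floor on both arrays these medians were -0.53 and 0.04. The cut lies where the main ratios first change sign, so the contrast follows in part from its placing. As a description over 9 neighbouring genes, which share 2 arrays and are not independent, rank in the cluster and log2 ratio were correlated at 0.78 by Spearman's measure and 0.54 by Pearson's. Without the end genes Hoxa2 and Hoxa13 these were 0.68 and 0.40 over 7 genes. Hoxa7 breaks the order: without it they were 0.93 and 0.94 over 8 genes. Hoxa7 was picked for its value, so this rise follows from the choice and is no support for the order. The 8 genes also include Hoxa4 and Hoxa13, whose signs the floor fixed. With the measured probe set of lowest mean signal in place of the highest, which gives Hoxa3 a ratio of 0.10 and Hoxa9 one of 0.31, the Spearman correlation was 0.58.

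**Figure D3:**
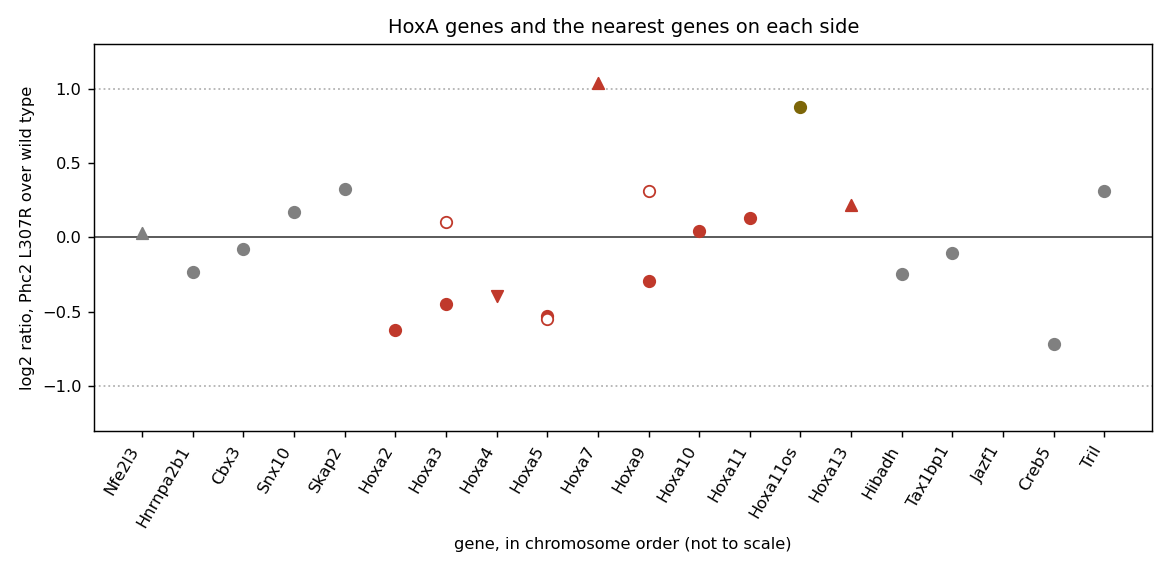
Log2 ratio of Phc2 L307R over wild type for the HoxA genes (red), Hoxa11os (brown) and the 5 nearest genes with a probe set on each side (grey), in chromosome order and not to scale. Filled symbols are the probe set of highest mean signal, open circles a further measured probe set of a HoxA gene, triangles are bounds, and dotted lines mark 2-fold. The ratios of the 4 genes of the 3' end lie below 0 at the filled symbols.

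Counted by sign, 4 members were above 0 and 5 below, beside 59.1% of all measured genes above 0 and 40.9% below. Without Hoxa4, Hoxa7 and Hoxa13, whose signs the floor fixed, 2 were above 0 and 4 below. Over all 9 members the median was -0.29, against 0.06 for all measured genes, and the SD was 0.52, against 0.33. This SD includes Hoxa7 at its bound of 1.04, while the values given for the other members lay between -0.62 and 0.22. Those of Hoxa4 and Hoxa13 are bounds as well. In addition, 4 members are in the dim class, whose SD was 0.42. A wider spread of the HoxA genes cannot be read from it. Over the 6 members above the floor on both arrays, the median was -0.37, against 0.06 over 10703 such genes. The sign of the median rested on the choice of probe set. It was 0.010 with a gene's measured probe sets averaged, 0.041 without probe sets ending in _x_at or _s_at, and 0.10 with the measured probe set of lowest mean signal.

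Beyond the cluster, the nearest genes with a probe set were mixed in sign. Of the 10, 5 on each side, 9 were measured, 4 with a ratio above 0 and 5 below, from -0.71 to 0.32 with a median of -0.08. Nfe2l3 was above the floor in Phc2 L307R alone, so its sign, above 0, was fixed by the floor. Next to the 3' end, Skap2, an adaptor protein of immune cells, had a log2 ratio of 0.32 and Snx10, a sorting nexin, 0.17. Next to the 5' end, Hibadh, an enzyme of valine breakdown, had -0.24 and Tax1bp1, an autophagy receptor, -0.11. The lowest ratio was that of Creb5, a transcription factor, with 143.4 in Phc2 L307R and 235.2 in wild type. Jazf1 lay below the floor on both arrays.

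The other Hox clusters hold paralogs, genes of the same number that arose by duplication of the whole cluster and can act in place of each other. Of the members, 8 had a measured paralog, in 15 pairs. In 10 of these neither ratio was a bound, and the HoxA gene had the lower log2 ratio in 9 of the 10, with a median difference of -0.29. With the dimmer measured probe set of each member this count was 6 of 10, the change lying in pairs of Hoxa3 and Hoxa9. The pairs of Hoxa5 and the pair of Hoxa9 with Hoxd9 stayed lower. The pairs of Hoxa2, Hoxa10 and Hoxa11 could not change, since these members have no further measured probe set. Paralogs kept their main probe set, and the pairs share members, so they are not independent. Hoxa2 at -0.62 stood beside Hoxb2 at 0.08, and Hoxa5 at -0.53 beside Hoxb5 at -0.24 and Hoxc5 at -0.40. In the group of Hoxa3, Hoxb3 was at -0.41 and Hoxd3 at -0.22 or less, and in that of Hoxa4, Hoxb4 was at -0.04 and Hoxc4 at -0.05.

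At the 5' end, Hoxa10 at 0.04 stood beside Hoxc10 at 0.35 and Hoxd10 at 0.11, and Hoxa11 at 0.13 beside Hoxd11 at -0.21. The paralogs of Hoxa9 had log2 ratios of 0.00 for Hoxb9, 0.20 for Hoxc9 and 0.53 for Hoxd9. Hoxd13 was at 0.65 and Hoxc13 at 0.65 or more, and they cannot be ranked against Hoxa13, whose value of at least 0.22 is a bound. Hoxb7, the paralog of Hoxa7 with a probe set of its own, lay below the floor on both arrays at 19.3 in Phc2 L307R and 42.3 in wild type. HoxC also ran from lower ratios at low numbers to higher ones at high numbers, so this order was not particular to HoxA. Hoxc4 was at -0.05, Hoxc5 at -0.40, Hoxc6 at -0.05 and Hoxc8 at -0.13, while Hoxc9, Hoxc10 and Hoxc13 were above 0. The floor fixed the sign of Hoxc13. HoxB and HoxD did not follow this order. Hoxb2, at 0.08, was the highest of the measured HoxB genes, and Hoxb6 was at -0.26. Hoxd8, at 0.68, lay above Hoxd9, Hoxd10 and Hoxd11. Correlation with order was not computed for HoxB, HoxC or HoxD. The median over measured genes was -0.29 for HoxA, -0.14 for HoxB, -0.05 for HoxC and 0.32 for HoxD, and no gene of HoxB, HoxC or HoxD passed 2-fold. The HoxA median is the main value of Hoxa9, and was 0.010, 0.041 and 0.10 under the other choices of probe set. The other clusters were not recomputed under these choices. None of these differences between clusters was tested.

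**Figure D4:**
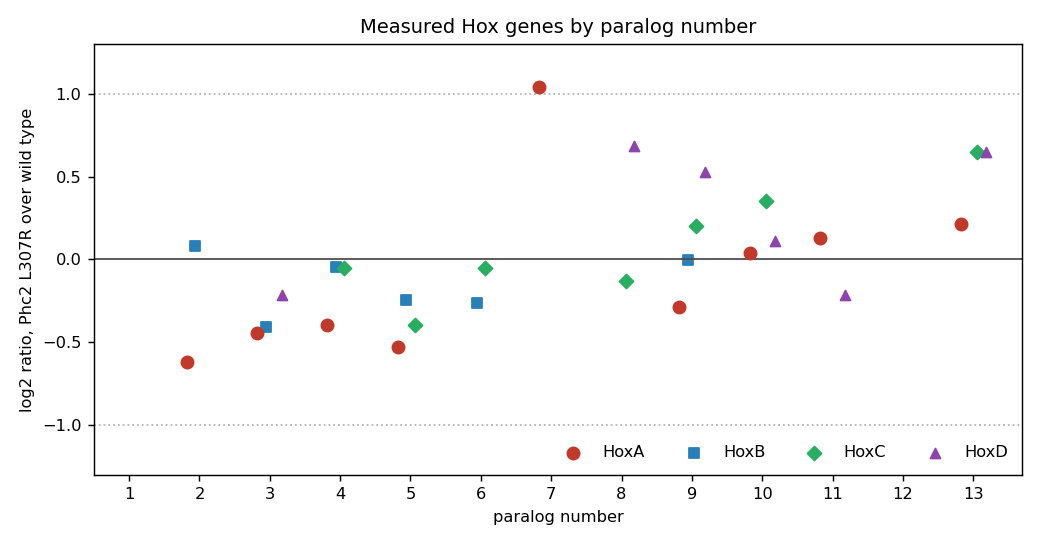
Log2 ratio of Phc2 L307R over wild type (vertical axis) by paralog number (horizontal axis) for the measured genes of the 4 Hox clusters, 1 symbol per gene, moved slightly sideways so as not to overlap. Dotted lines mark 2-fold, which Hoxa7 passes. HoxA genes of numbers 2 to 5 are drawn between -0.62 and -0.40. The values of Hoxa4, Hoxa7, Hoxa13, Hoxc13 and Hoxd3 are bounds, drawn with the same symbols as the others.

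The alternatives tested the direction unevenly. Of the members with 1 measured probe set, none could be moved by the choice of probe set, and the signs of Hoxa4, Hoxa7 and Hoxa13 were fixed by the floor. Over the main setting and those alternatives in which each was measured, Hoxa2, Hoxa4 and Hoxa5 stayed below 0, with ranges of -0.68 to -0.35, -0.52 to -0.27 and -0.59 to -0.46. Hoxa7, Hoxa11 and Hoxa13 stayed above 0, from 0.14 to 1.22, from 0.07 to 0.13 and from 0.15 to 0.78. Hoxa3, Hoxa9 and Hoxa10 took both signs, from -0.51 to 0.10, from -0.35 to 0.31 and from -0.02 to 0.04. The place of Hoxa7 past 2-fold was lost in several settings. Its log2 ratio was 0.98 with centring, 0.70 with the floor's value as a pseudocount, and 0.14 with the floor at the 60th percentile.

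**Figure D5:**
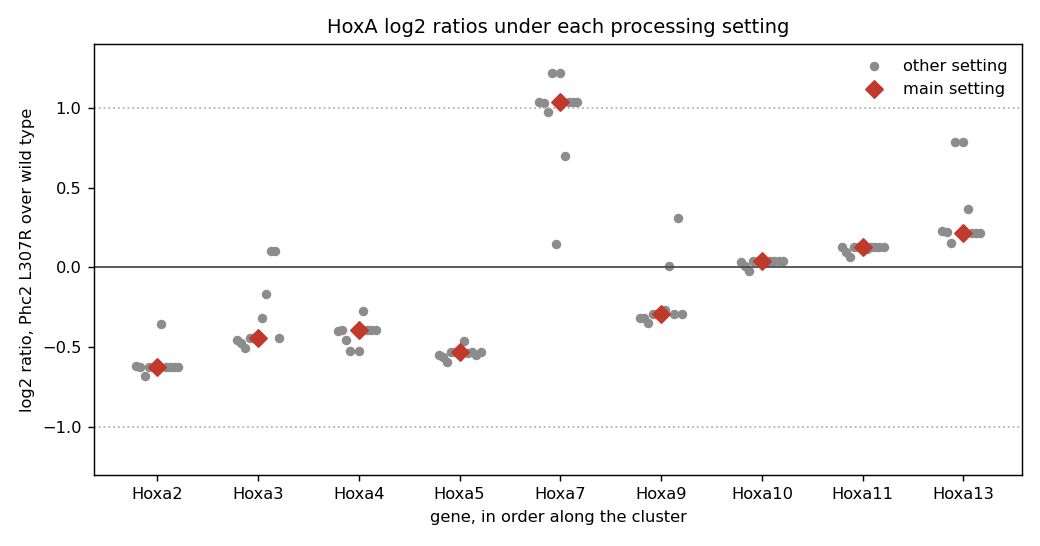
Log2 ratio of Phc2 L307R over wild type for each HoxA gene, in order along the cluster, in the main setting (red diamonds) and in each other processing setting in which the gene was measured (grey points). Dotted lines mark 2-fold. Hoxa7 spreads from 0.14 to 1.22 and Hoxa5 stays between -0.59 and -0.46.

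HoxA levels differ between the parts of an embryo and between the tissues that grow out of it, so markers of place and of other cells were set beside these ratios. Of 13 markers of limb mesenchyme with a probe set, 12 were measured, 8 above 0 and 4 below, with a median log2 ratio of 0.20. The signals of the whole list summed to 12663 in Phc2 L307R and 10989 in wild type. Lhx2 was below the floor on both arrays. Tbx5, the factor of the forelimb, had 209.4 in Phc2 L307R and 136.9 in wild type. Tbx4 and Pitx1, factors of the hindlimb, had log2 ratios of 0.38 and 0.50. Each of these 3 was higher in Phc2 L307R, by less than 2-fold. The 4 below 0 were Msx2 at -0.37, En1 at -0.34, Lhx9 at -0.03 and Lmx1b at -0.01. Of all measured genes, 59.1% were above 0.

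Chondrocyte markers moved most: of 14, 13 were measured, 12 had a ratio above 0, 6 were at least 2-fold higher, and the median log2 ratio was 0.80. Of all measured genes 0.579% were at least 2-fold higher, and of those in the dim class 1.47%. The marker below 0 was Sox9 at -0.29, and the ratios of Matn1 and Cnmd are bounds. The whole list summed to 14582 in Phc2 L307R and 10198 in wild type, and Col9a2 was below the floor on both. The sums that follow are likewise over every marker with a probe set, measured or not. Of 9 head mesenchyme markers 5 were measured, 4 above 0, with a median of 0.17 and sums of 1753 in Phc2 L307R and 1493 in wild type, and Alx4, Dlx1, Dlx6 and Pax3 lay below the floor on both. Among 10 macrophage markers 4 were measured, 3 above 0, with a median of 0.56 and sums of 908.7 in Phc2 L307R and 674.0 in wild type, and Ptprc, C1qa, C1qb, C1qc, Itgam and Fcer1g lay below the floor. Of 8 endothelial markers 4 were measured, 3 above 0, with a median of 0.06. The 8 summed to 694.0 in Phc2 L307R and 776.0 in wild type, with Emcn alone at 94.9 in Phc2 L307R and 210.8 in wild type, and Pecam1, Cdh5, Tie1 and Cldn5 lay below the floor. Skeletal muscle markers, 7 of 8 measured and Myf5 below the floor, had 5 above 0 and a median of 0.18, and summed to 29058 in Phc2 L307R and 24492 in wild type. The 7 neural markers with a probe set, all measured, had 4 above 0 and a median of 0.26, with Stmn2 at 1.01 and Map2 at -1.31, and summed to 5141 in Phc2 L307R and 4064 in wild type. Matn1, Cnmd, Alx1, Barx1, Tek and Erg were above the floor in Phc2 L307R alone, and Sox2 in wild type alone. Their signs were fixed by the floor and add nothing to these counts. The part of these cells and regions in the HoxA ratios was not tested.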

How the data were processed

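The deposited file holds intensity values on a linear scale for 45101 probe sets and 2 arrays. They were made with MAS5 and Affymetrix Expression Console, per the submitters' processing notes, which give no version. No genome build is stated. In the deposited values the mean intensity, with 2% trimmed at each end, was 500.0 on both arrays, and this scale was kept. Detection calls and scanner files were not used here. After 64 controls were left out, 34945 probe sets carried 1 gene symbol, 932 several and 9160 none in the platform annotation. Symbols were updated by gene ID through RefSeq GRCm38.p6, where 34741 matched. That table also gave gene order.

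Log2 ratios, counts and correlations were computed with Python 3.11.15, pandas 2.3.3, numpy 2.4.6 and scipy 1.17.1, and the loess with statsmodels 0.14.6 (span 0.4, 3 iterations). The calculation was tested on simulated data. The number of arrays limits the precision. All members and their paralogs, cluster neighbours and marker genes were named by rule. The members and lists were chosen with earlier results of these data known. The alternatives were quantile normalization, loess, centring, a floor at the 40th or the 60th percentile, omission of the floor, a pseudocount, other choices of probe set, and thresholds of 1.5-fold and 3-fold.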

Additional observations from a re-analysis of the deposited data

How the results depend on the processing

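The HoxA median log2 ratio, -0.29, was -0.12 under the 60th-percentile floor, 0.010 when a gene's measured probe sets were averaged and 0.041 when those ending in _x_at or _s_at were left out. In 2 alternatives added after seeing the data, it was 0.10 with the measured probe set of lowest mean signal and -0.37 over members above the floor on both arrays. The Spearman correlation of order and ratio, 0.78, was 0.60, 0.62, 0.58 and 0.94 under the 60th-percentile floor, without those suffixes, with the lowest probe set and over members above the floor on both arrays, and the Pearson correlation, 0.54, was 0.73, 0.41, 0.46 and 0.91. The last of these settings leaves 6 members, without Hoxa4, Hoxa7 and Hoxa13. As Hoxa7 is left out, its higher correlations are no support for the order. No member was at least 2-fold higher, a count of 0 and not 1, with centring, the 60th-percentile floor, the pseudocount or only members above the floor on both arrays, and 0 members were past a threshold of 3-fold. At 1.5-fold 1 member was lower and not 0. Members below 0 numbered 3 under the 60th-percentile floor, where Hoxa2, Hoxa4 and Hoxa13 were no longer measured and 6 members were left, and 3 with the lowest probe set, with 6 above 0, while members above the floor on both arrays had 2 above 0. Of 93 member values under alternatives, 86 moved by less than the SD between probe sets and 7 by more. Many of the 86 could not move, since a setting can leave a gene's value as it was. Reversal was counted only for a member past 2-fold, so only for Hoxa7. Hoxa7 has 1 probe set and a sign that the floor fixed, so the absence of a reversal carries no information. Hoxa3, Hoxa9 and Hoxa10 took both signs. Counted over the whole array, the genes past 2-fold were 66 higher and 61 lower, against 127 and 90 under the 40th-percentile floor, 27 and 35 under the 60th, 159 and 122 without a floor and 26 and 22 with the pseudocount. The cause of these shifts was not tested, except that the floor and probe set settings change which values enter. No paired analysis was possible because each genotype had 1 array, and for the same reason no replicate could be left out.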

Other observations

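Hox proteins bind DNA together with the TALE homeodomain cofactors of the Meis, Pbx and Pknox families. Of 7 that were measured, 6 had at least 2 measured probe sets, and in 5 of the 6 these took both signs. Meis2 had 1318 in Phc2 L307R and 2540 in wild type at 1457632_s_at, a log2 ratio of -0.95, and -1.33 at 1447861_x_at, while it was 0.28 at 1417129_a_at and 0.20 at 1440091_at. Meis1, a partner of Hoxa9, was at -0.30 at its main probe set and 0.06 at another. Pbx2 was the exception, at 0.10, 0.19 and 0.40. Pbx3 was at -0.21 at its main probe set and 0.06 at another, and Pknox2 at 0.31 and -0.33. Meis3, with 1 probe set, was at 0.58. Pknox1 was at 0.55 at its main probe set, with 803.1 in Phc2 L307R and 549.2 in wild type, and at 0.06 and -0.15 at the others. Pbx4 lay below the floor on both arrays. The list was chosen with earlier results known, and none of its values has a replicate.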
